A study of Rattus norvegicus with 6 samples.

Results

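Adenosine is made at the cell surface when ATP and ADP are cut to AMP by CD39 (Entpd1) and AMP is cut to adenosine by CD73 (Nt5e). It acts on 4 G protein-coupled receptors (Adora1, Adora2a, Adora2b and Adora3), enters cells through the equilibrative transporter ENT1 (Slc29a1), and is removed there by adenosine kinase (Adk), which returns it to AMP, or by adenosine deaminase (Ada), which turns it into inosine. Xanthine oxidoreductase (Xdh) carries out the last steps from hypoxanthine to uric acid. In the heart, adenosine is known as a signal of energy shortage that slows the pacemaker and conduction through the A1 receptor, widens coronary vessels through A2 receptors and restrains leukocytes.

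The genes described are these 10, taken by symbol from a table of 32623 rat genes, and each symbol matched exactly 1 row. They were compared in myocardial tissue of wild-type male rats, 3 sham samples and 3 ischemia samples. In the ischemia group a suture had closed the left anterior descending (LAD) artery, with 30 min given in the sample titles of both groups. The rats were anesthetized, ventilated and opened at the chest, and no ligation is described for sham. Strain, age, the part of the heart taken and the number of animals behind each sample were not given, so p-values measure the spread between these samples only. RNA came from whole tissue, in which more cells of a type and more RNA per cell cannot be told apart.

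Total counts per sample ranged from 68529126 to 79591989. The samples differed in ways the groups do not describe. Of 4 Y-linked genes, sham replicate 1 had 26 counts in all and every other sample 1772 to 4366, although the labels describe male rats. The atrial myosin light chain gene Myl7 had an FPKM (fragments scaled by gene length and library size) of 6530 in sham replicate 1 and 3541 in sham replicate 3, but of 116.9 in sham replicate 2. In ischemia it was 764.4 in replicate 1 and only 10.004 and 12.31 in the remaining pair. Of 14 tested neutrophil and monocyte genes, edgeR called 10 higher in ischemia and 0 lower, against 5.18% and 1.53% of all tested genes. The summed FPKM of this list was 51.4 to 81.8 in sham, 585.1 and 617.2 in ischemia replicates 1 and 3, and 4381 in ischemia replicate 2. Ventricular cardiomyocyte genes were present in every sample, with a summed FPKM of 9120 to 30616 over 7 genes, of which 1 had a positive log2 fold change (median -0.59). Of 5 fibroblast and 5 smooth muscle genes all had negative log2 fold changes, and of 2 platelet genes 1 had, with 0 past the adjusted threshold in edgeR.

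The first question was whether the genes that make, sense and clear adenosine differed between ischemia and sham. The edgeR quasi-likelihood test was applied to the 13964 genes whose mean FPKM reached 0.5, and p was adjusted over all of them. Ada rose and Adk fell. These 2 enzymes compete for intracellular adenosine. Of the 9 adenosine genes that passed the expression filter, 1 passed an adjusted p of 0.05 as higher, as did 5.18% of all tested genes, and 1 as lower, as did 1.53%. The other 7 did not pass, and 7 of the 9 had an unadjusted p under 0.05, as did 32.4% of all tested genes. By FPKM, all ischemia samples lay above all sham samples for 4 of the 9 (23.6% of all tested genes) and below them for 3 (15%). The remaining 2, Nt5e and Entpd1, overlapped. Adora3 did not pass the filter.

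**Figure D1:**
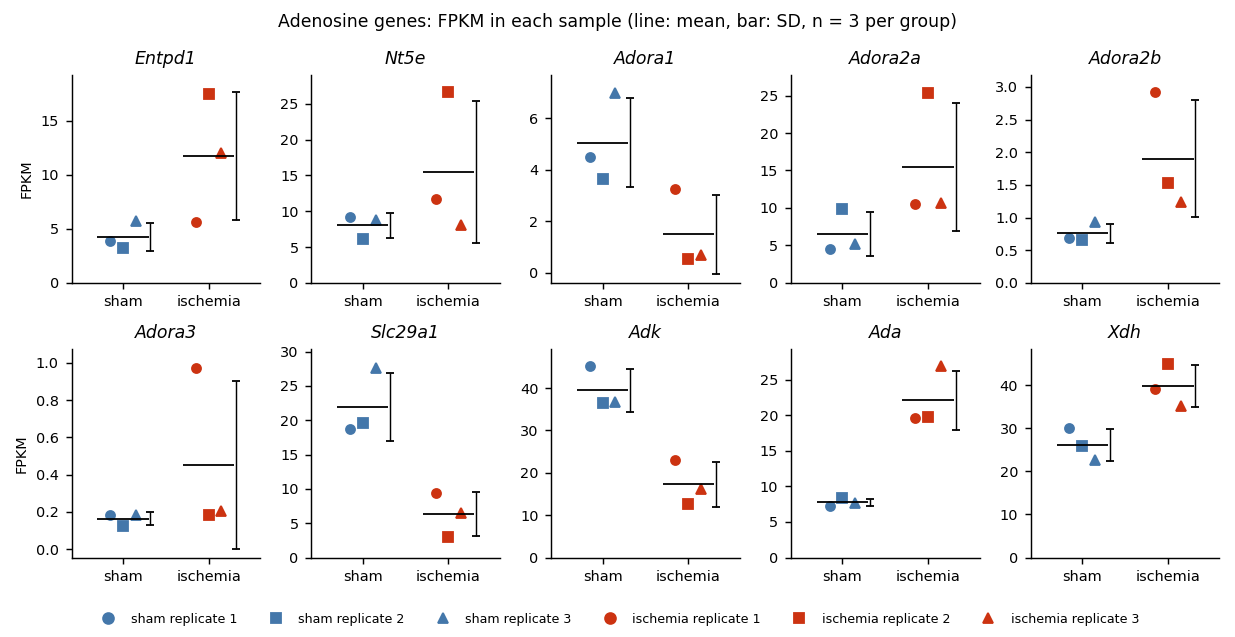
FPKM of each of the 10 adenosine genes (vertical axes, linear, a separate scale per panel) in the 3 sham and the 3 ischemia samples, with the mean as a line and the SD as a bar. Ada, Adora2a, Adora2b and Xdh lie higher and Slc29a1, Adk and Adora1 lower in every ischemia sample than in every sham sample, although with TMM-scaled CPM Adora2a overlaps.

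Ada and Adk changed in opposite directions. Values are given in the order of replicates 1 to 3. For Ada the sham FPKM was 7.28, 8.32 and 7.64, and the ischemia FPKM was 19.6, 19.8 and 26.9. The sham samples lay close together at 7.75 ± 0.53 (SD, n = 3), and the ischemia samples at 22.1 ± 4.16 (SD, n = 3) were all above them. Ada rose 2.67-fold, with a log2 fold change of 1.42 ± 0.26 (SE; edgeR adjusted p 0.0381). For Adk the sham FPKM was 45.2, 36.5 and 36.7, and the ischemia FPKM was 23.1, 12.7 and 16.1. Every ischemia sample was lower than every sham sample, at 17.3 ± 5.33 (SD, n = 3) against 39.5 ± 4.97 (SD, n = 3). Adk had a log2 fold change of -1.27 ± 0.28 (SE; edgeR adjusted p 0.0496), and the level in sham was 2.41-fold that in ischemia. This call was lost with total-count scaling (-1.19, edgeR adjusted p 0.0551) and without the expression filter (-1.25, 0.0651). With the mean of the atrial genes as a covariate neither gene passed (Ada 1.19, edgeR adjusted p 0.190, and Adk -1.17, 0.207). That fit called 0 of the 13964 tested genes higher and 0 lower, so the loss is not particular to these 2 genes.

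Because FPKM is scaled by gene length, the levels of both enzymes can also be set against each other within a sample. The ratio of Ada to Adk FPKM, chosen after the values were seen and given without a test, was 0.161, 0.228 and 0.208 in sham. It was 0.847, 1.56 and 1.67 in ischemia. Adk mRNA was thus the more abundant of the pair in each sham sample and in ischemia replicate 1, and Ada mRNA in ischemia replicates 2 and 3.

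Calls depended on single samples over the whole table. Without ischemia replicate 1, edgeR called 1495 genes higher (10.7% of those tested) and 1115 lower (7.96%). Without ischemia replicate 2 it called 445 higher (3.21%) and 104 lower (0.751%), and with any other sample left out it called none, with 3029 to 3822 genes at an unadjusted p under 0.05. Ada had an edgeR adjusted p of 0.160, 0.0828 and 0.139 without sham replicate 1, 2 or 3 and of 0.127 without ischemia replicate 3, and it passed only without ischemia replicate 1 (0.0290) or 2 (0.0428). Adk passed without ischemia replicate 1 (0.0209) and not without any of the others (0.0648 to 0.171). The sizes moved less, from 1.20 to 1.59 on the log2 scale for Ada and from -1.55 to -1.05 for Adk. Ada is abundant in lymphoid cells. Positive log2 fold changes were found for 7 of 7 tested T and B lymphocyte genes, against 6968 of all 13964 tested genes. In edgeR, 0 of the 7 passed the adjusted threshold. The summed FPKM of the lymphocyte list was 9.004 to 10.6 in sham and 19.6 to 28.1 in ischemia. Among the ischemia samples Ada was highest in replicate 3, where the lymphocyte sum was lowest (19.6), and the sums of lymphocyte and of neutrophil and monocyte genes were highest in replicate 2. The part of either cell type in the rise of Ada was not tested.

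Slc29a1, the transporter through which adenosine crosses the plasma membrane in both directions, had lower values in ischemia. Its FPKM was 18.7, 19.6 and 27.7 in sham and 9.37, 3.03 and 6.53 in ischemia. Groups were apart. Its log2 fold change was -1.86 ± 0.45 (SE; edgeR adjusted p 0.0561) and missed the threshold. It passed without ischemia replicate 1 (-2.26, 0.0308) and without ischemia replicate 2 (-1.5, 0.0442), fits that called 7.96% and 0.751% of all tested genes lower. Of 8 endothelial genes, which mark a cell type rich in this transporter, 4 had positive log2 fold changes (median 0.0058, range -0.52 to 0.73) and 0 passed in edgeR. Their summed FPKM was 250.7 to 265.9 in sham and 279.3 to 302.6 in ischemia, and their part in the Slc29a1 values was not tested.

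Xdh, whose enzyme forms uric acid at the end of the route through inosine, had an FPKM of 30.0, 25.8 and 22.5 in sham and 39.1, 45.0 and 35.3 in ischemia. All ischemia samples were above all sham samples. The difference was the smallest of the 9 tested genes in size, with a log2 fold change of 0.50 ± 0.20 (SE; edgeR adjusted p 0.142), and it did not pass. Xdh was the most abundant of the 10 genes in ischemia by mean FPKM, at 39.8 ± 4.86 (SD, n = 3).

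**Figure D2:**
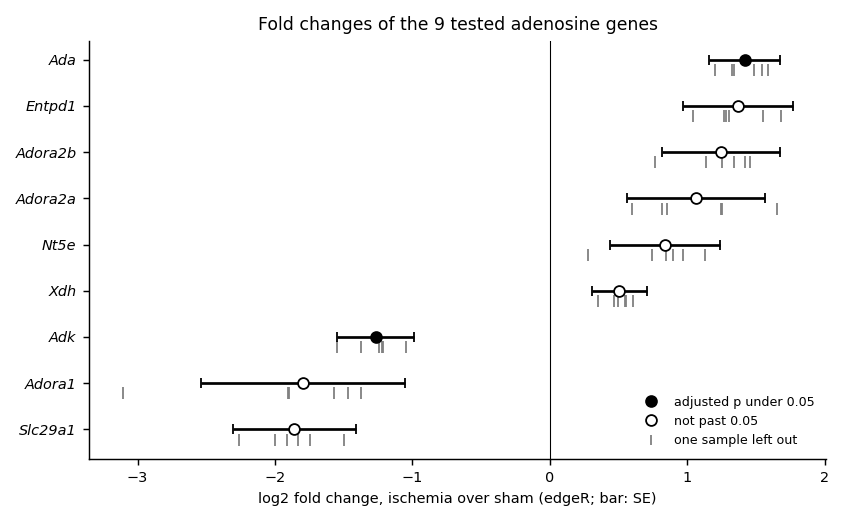
Log2 fold change of ischemia over sham (horizontal axis, edgeR) for the 9 tested adenosine genes, with the SE as a bar, filled where the adjusted p was under 0.05, and with grey ticks for the 6 fits that each left out 1 sample. Ada and Adk are filled, every tick stays on its gene's side of 0, and the tick of Adora1 farthest to the left (-3.11) is the fit without ischemia replicate 1.

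The sequences just upstream of the clearance genes are shown because Ada, Adk and Slc29a1 had the smallest adjusted p-values of the 9 tested genes while moving in different directions. Each is the 250 bases before the annotated start in RefSeq (build GRCr8), read 5′ to 3′ on the strand of the gene, with each GC box (GGGCGG or, on the other strand, CCGCCC) in capitals. The windows lie at chr3:172842284-172842533 on the minus strand for Ada, chr15:3295746-3295995 on the minus strand for Adk and chr9:22896849-22897098 on the plus strand for Slc29a1.
Ada: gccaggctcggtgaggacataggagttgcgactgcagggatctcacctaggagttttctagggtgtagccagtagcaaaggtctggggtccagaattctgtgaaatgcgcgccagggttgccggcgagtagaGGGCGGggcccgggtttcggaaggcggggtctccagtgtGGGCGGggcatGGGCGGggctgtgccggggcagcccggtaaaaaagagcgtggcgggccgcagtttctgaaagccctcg
Adk: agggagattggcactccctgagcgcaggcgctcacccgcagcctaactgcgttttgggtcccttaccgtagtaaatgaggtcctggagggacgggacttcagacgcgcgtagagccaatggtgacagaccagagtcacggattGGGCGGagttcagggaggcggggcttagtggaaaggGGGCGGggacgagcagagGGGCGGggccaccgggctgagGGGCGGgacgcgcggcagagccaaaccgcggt
Slc29a1: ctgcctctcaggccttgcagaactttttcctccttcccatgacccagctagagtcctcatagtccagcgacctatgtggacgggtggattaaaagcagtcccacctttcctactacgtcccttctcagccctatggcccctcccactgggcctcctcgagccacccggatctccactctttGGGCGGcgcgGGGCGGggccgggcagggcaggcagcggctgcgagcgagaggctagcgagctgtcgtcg

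The windows hold 3 GC boxes for Ada, 4 for Adk and 2 for Slc29a1, with GC contents of 64.0%, 66.0% and 63.6%. Promoter windows of 9 of the 10 genes were matched, and 5 of the 9 held a GC box on either strand, as did 30.5% of all 33469 windows of the same length. The hypoxia response core ACGTG (or CACGT on the other strand) was in 0 of the 9 and in 16.6% of all windows. This says only that those letters are not in these 250 bases. The windows of Entpd1, Adora1, Adora3 and Xdh held no GC box. That of Xdh was taken on the plus strand, as annotated in GRCr8, whereas the deposited table places Xdh on the minus strand.

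The receptors were compared next. Adora1, which encodes the A1 receptor and is known for its role in the atria and the conduction system, had lower values in ischemia. Its FPKM was 4.51, 3.65 and 6.98 in sham and 3.27, 0.523 and 0.698 in ischemia. Groups were apart, although ischemia replicate 1 came close to sham replicate 2. Its log2 fold change of -1.80 ± 0.74 (SE; edgeR adjusted p 0.152) did not pass. Without ischemia replicate 1 it was -3.11 and passed (0.0140), in a fit that called 7.96% of all tested genes lower.

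Atrial genes also had lower values in ischemia on average, with negative log2 fold changes for 6 of 6 and 0 past the adjusted threshold in edgeR. Because the natriuretic peptide gene Nppa is also switched on in stressed ventricle and made up most of the list's sum in 5 of the 6 samples, the other 5 atrial genes were summed, a choice made after the values were seen. Their summed FPKM was 15130, 148.9 and 14241 in sham and 2183, 27.5 and 28.9 in ischemia. Both samples with the lowest atrial sum also had the lowest Adora1 values. The orders were not the same throughout, since sham replicate 2 had more Adora1 than ischemia replicate 1 (3.65 against 3.27 FPKM) at a lower atrial sum, and sham replicate 3 more than sham replicate 1. With TMM-scaled CPM, sham replicates 1 and 2 had nearly the same Adora1 level (13.1 and 13.2) at atrial sums of 15130 and 148.9. With the mean of the 6 atrial genes as a covariate the log2 fold change of Adora1 was -1.40 (edgeR adjusted p 0.315), in a fit that called 0 genes of the whole table. The part of atrial tissue in the Adora1 values was not tested beyond this fit.

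**Figure D3:**
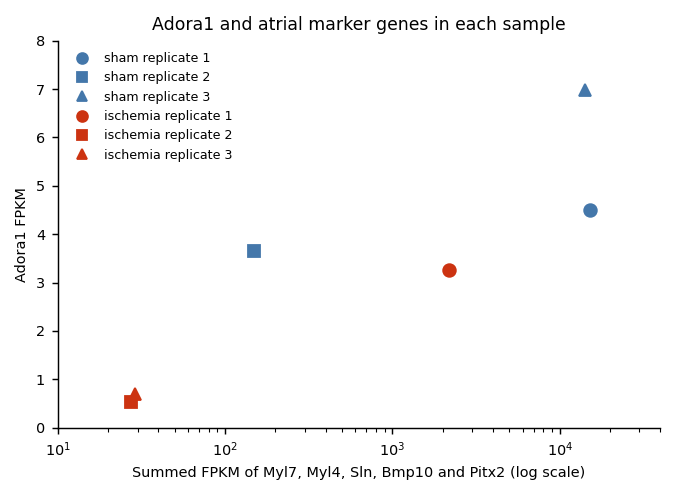
Adora1 FPKM (vertical axis) against the summed FPKM of 5 atrial genes (horizontal axis, log scale), 1 point per sample. Ischemia replicates 2 and 3 lie lowest on both axes (0.523 and 0.698 FPKM of Adora1), and sham replicate 2 has 3.65 FPKM of Adora1 at an atrial sum of 148.9.

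Adora2a, which encodes the A2 receptor best known for widening vessels and restraining leukocytes, was the most abundant receptor gene of the ischemia samples. Its FPKM was 4.57, 9.84 and 5.16 in sham and 10.5, 25.4 and 10.6 in ischemia. Its lowest ischemia value was just above sham replicate 2, and ischemia replicate 2 stood apart. The order depended on scaling, since with TMM-scaled CPM sham replicate 2 (30.3) lay above ischemia replicates 1 and 3 (26.6 and 28.0). The log2 fold change was 1.07 ± 0.50 (SE; edgeR adjusted p 0.191), and it ran from 0.60 without ischemia replicate 2 to 1.65 without sham replicate 2. With the atrial covariate it was 0.49.

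Adora2b, the low-affinity A2 receptor, had an FPKM of 0.687, 0.657 and 0.927 in sham and 2.92, 1.54 and 1.25 in ischemia. All ischemia samples were above all sham samples, with the highest value in ischemia replicate 1. The log2 fold change was 1.25 ± 0.43 (SE; edgeR adjusted p 0.111), and it was 0.76 without ischemia replicate 1 and 0.68 by limma on log2(FPKM + 1). It rested on 97 to 125 counts in sham and 164 to 446 in ischemia.

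Adora3, the A3 receptor gene, was close to the limit of measurement. It had 25, 18 and 24 counts in sham and 142, 25 and 26 in ischemia, so that only ischemia replicate 1 stood apart and the groups overlapped. Its FPKM was 0.185, 0.123 and 0.184 in sham and 0.974, 0.182 and 0.206 in ischemia, and its mean fell under the filter of 0.5. Fitted without the filter, its log2 fold change was 1.42 ± 0.83 (SE; edgeR adjusted p 0.326). By the coordinates of the table, Adora3 overlaps Tmigd3, Wdr77 and LOC100911453 on the same strand, so its reads are uncertain.

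The makeup of the receptor mRNA pool was then compared as the share of each gene in the summed FPKM of all 4. Adora1 held 45.3%, 25.6% and 52.7% of the pool in sham and 18.5%, 1.89% and 5.48% in ischemia. Its share was lower in every ischemia sample, with a mean difference of -32.6 percentage points (41.2 ± 14.01 against 8.62 ± 8.73, SD, n = 3; two-sided exact permutation p 0.1, adjusted over the 4 receptors 0.4). Adora2a held 45.9%, 68.9% and 38.9% in sham and 59.5%, 91.9% and 83.1% in ischemia, and the groups overlapped (exact permutation p 0.2, adjusted 0.4). The shares of Adora2b were 4.60% to 6.998% in sham and 5.56% to 16.5% in ischemia (exact permutation p 0.3, adjusted 0.4). Those of Adora3 were 0.863% to 1.86% and 0.658% to 5.51% (exact permutation p 0.7, adjusted 0.7). With 3 samples against 3 the test cannot give a p below 0.1, so none of these shares could pass.

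**Figure D4:**
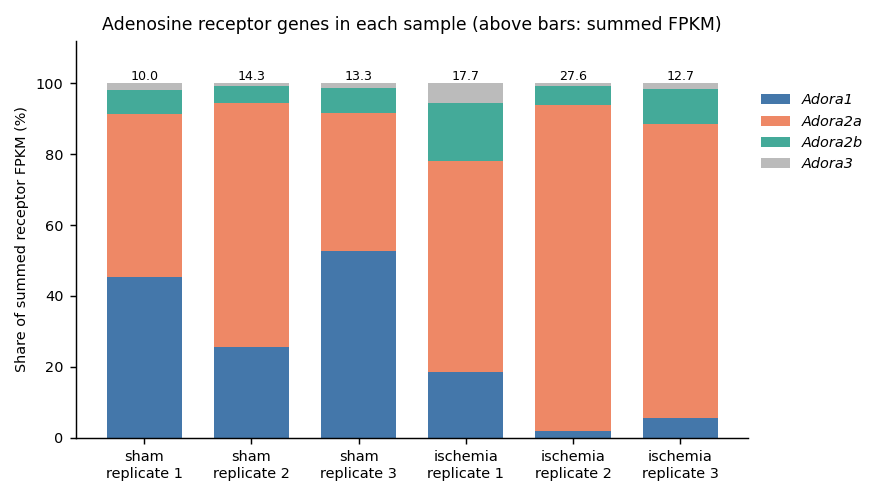
Share of each adenosine receptor gene in the summed FPKM of all 4 (stacked bars, vertical axis in percent, starting at 0) in each sample, with the summed FPKM above each bar. Adora1 takes 25.6% to 52.7% of the pool in the sham samples and 1.89% to 18.5% in the ischemia samples.

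The ectonucleotidases that make adenosine outside the cell had positive log2 fold changes, and neither passed. Entpd1 had an FPKM of 3.87, 3.23 and 5.71 in sham and 5.65, 17.5 and 12.0 in ischemia. Ischemia replicate 1 lay just under sham replicate 3 by FPKM, and just above it with TMM-scaled CPM (27.2 against 26.5). The log2 fold change was 1.37 ± 0.40 (SE; edgeR adjusted p 0.0811), and without ischemia replicate 1 it was 1.68 and passed (0.0181), in a fit that called 10.7% of all tested genes higher.

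Nt5e had an FPKM of 9.21, 6.06 and 8.84 in sham and 11.7, 26.6 and 8.01 in ischemia. Ischemia replicate 3 was below 2 of the sham samples and ischemia replicate 2 far above all. The log2 fold change was 0.84 ± 0.40 (SE; edgeR adjusted p 0.197), and 0.28 without ischemia replicate 2. Entpd1, Nt5e and Adora2a were each highest in ischemia replicate 2, the sample with the neutrophil and monocyte sum of 4381 FPKM against 617.2 and 585.1 in the other ischemia samples. Resident macrophage genes were also highest there, at 197.4 FPKM against 88.6 and 115.7 in the other ischemia samples and 45.3 to 73.4 in sham. The part of these cells in the 3 results was not tested.

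Across the 10 genes the order of abundance differed between the groups. In sham the mean FPKM ran from Adk (39.5) through Xdh (26.1), Slc29a1 (21.98), Nt5e (8.04), Ada (7.75), Adora2a (6.52), Adora1 (5.05), Entpd1 (4.27) and Adora2b (0.757) to Adora3 (0.164). Only Adk and Xdh, Slc29a1 and Nt5e, Entpd1 and Adora2b, and Adora2b and Adora3 were neighbours whose samples did not overlap. In ischemia the order was Xdh (39.8), Ada (22.1), Adk (17.3), Adora2a and Nt5e (both 15.5), Entpd1 (11.7), Slc29a1 (6.31), Adora2b (1.90), Adora1 (1.497) and Adora3 (0.454). There, only Xdh and Ada, and Slc29a1 and Adora2b, were neighbours without overlap.

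By the position given in the table, whose genome build was not stated, Ada is at chr3:160115842-160139947 and Adk at chr15:3033495-3435888, both on the minus strand, and Slc29a1 is at chr9:17784468-17799005 on the plus strand. The counts are per gene and do not tell exons or isoforms apart. For Ada, the genes whose log2 CPM were most alike over the 6 samples were Lsm2, Nol6 and Rab30 (Pearson r 0.999, 0.998 and 0.996). For Slc29a1 they were Adam23, Ctsf and Coro2b (0.998, 0.996 and 0.996). With so few samples such values are common, and 269 and 573 genes reached an r of at least 0.95 with Ada and Slc29a1.

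The wider purine list held 55 further genes that make, move, bind or break down adenosine and its nucleotides, of which 54 were in the table and 39 were tested. In edgeR, 5 rose and 2 fell past the adjusted threshold, and 15 lay wholly above and 7 wholly below sham by FPKM. The median log2 fold change of the 39 was 0.44, against -0.0015 for all tested genes.

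Of 18 tested genes of production and release, edgeR called 4 higher and 0 lower (6 and 3 at an unadjusted p under 0.05), and DESeq2 called 6 and 2. Over all 13964 tested genes edgeR called 5.18% higher and 1.53% lower and had 32.4% at an unadjusted p under 0.05. DESeq2 called 2071 of them higher and 1742 lower. Of the 18 genes, 9 had log2 fold changes above 0 and 9 below, with a median of -0.031. Those at an unadjusted p under 0.05 in edgeR were Enpp3, Bst1, Nt5c, Ahcy, Cd38 and Slc17a9 above 0, and Entpd5, Nt5c2 and Nt5c3a below. Enpp3, an ectoenzyme that splits nucleotides at the cell surface, had an FPKM of 12.4, 7.40 and 11.4 in sham and 61.3, 96.7 and 45.4 in ischemia, with a log2 fold change of 2.62 ± 0.29 (SE; edgeR adjusted p 0.0261). Bst1, which with Cd38 breaks down NAD outside the cell, rose with a log2 fold change of 2.53 ± 0.51 (SE, edgeR, adjusted p 0.0445), while Cd38 had 1.08 ± 0.30 and did not pass (0.0748). Both enzymes are also found on leukocytes. Bst1 was highest in ischemia replicate 2, at 46.6 FPKM against 13.3 and 15.2 in the other ischemia samples. Its log2 fold change was 1.82 without that sample, and its call was lost without the expression filter (edgeR adjusted p 0.0504) and with total-count scaling (0.0512). The part of leukocytes in the Bst1 and Cd38 values was not tested.

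Inside the cell, the nucleotidase gene Nt5c rose as well, with a log2 fold change of 1.30 ± 0.24 (SE; edgeR adjusted p 0.0381). Its relatives Nt5c1a, Nt5c2 and Nt5c3a had negative log2 fold changes of -1.81, -0.93 and -0.66 (edgeR adjusted p 0.155, 0.0878 and 0.0895). Nt5c3b had 0.13, and none of these relatives passed. Ahcy, whose enzyme releases adenosine from S-adenosylhomocysteine, rose by 0.92 ± 0.15 (SE; edgeR adjusted p 0.0339). Its FPKM was 13.4 to 19.5 in sham and 30.6 to 36.3 in ischemia, without overlap. With total-count scaling the Ahcy call was lost (edgeR adjusted p 0.0512), and without ischemia replicate 2 that of Nt5c was (0.0590). The other CD39 relatives tested, Entpd2, Entpd5 and Entpd6, had log2 fold changes of -0.90, -0.90 and -0.996 and did not pass. Entpd1 therefore differed from them in sign, a difference that was not tested.

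Of 12 tested genes of clearance and salvage, edgeR called 0 higher and 2 lower (4 and 3 at an unadjusted p under 0.05), and DESeq2 called 1 and 3. The edgeR shares over all tested genes were 5.18% and 1.53% (32.4% at an unadjusted p under 0.05). DESeq2 called 2071 higher and 1742 lower of all 13964. Dpp4 encodes CD26, which in humans anchors adenosine deaminase to the cell surface. Its FPKM was 3.14, 2.63 and 3.04 in sham and 0.649, 0.621 and 0.745 in ischemia. All 3 ischemia samples lay close together and the log2 fold change was -2.20 ± 0.23 (SE; edgeR adjusted p 0.0246), opposite in sign to that of Ada. By limma on log2(FPKM + 1), which shrinks the changes of low genes, it was -1.23. Aox1, aldehyde oxidase, a molybdenum enzyme related to xanthine oxidoreductase, fell too, with a log2 fold change of -3.33 ± 0.69 (SE; edgeR adjusted p 0.0458). It was -4.0 without ischemia replicate 1 and -1.59 by limma on log2(FPKM + 1), and the call was lost without the expression filter (edgeR adjusted p 0.0541) and with total-count scaling (0.0508). Pnp, which acts on inosine between Ada and Xdh, had a log2 fold change of 0.66 ± 0.23 (SE; edgeR adjusted p 0.110). Slc29a2, the second equilibrative transporter, had 0.60 ± 0.26 (SE; 0.169), where Slc29a1 had -1.86. For clearance and salvage 9 of the 12 log2 fold changes were above 0, as were 6968 of all 13964. At an unadjusted p under 0.05 were Dpp4, Aox1, Slc28a2, Adal, Pnp, Ampd3 and Gda.

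Among 9 tested receptors for extracellular nucleotides, edgeR called 1 higher and 0 lower (3 and 1 at an unadjusted p under 0.05), and DESeq2 called 3 and 1. For all 13964 tested genes the edgeR shares were 5.18% and 1.53% (32.4% at an unadjusted p under 0.05), and DESeq2 called 2071 and 1742. P2ry6, a receptor for UDP, had an FPKM of 1.19, 1.83 and 2.13 in sham and 10.5, 22.8 and 14.1 in ischemia, with a log2 fold change of 3.08 ± 0.38 (SE; edgeR adjusted p 0.0272). P2ry2, a receptor for ATP and UTP, had 1.92 ± 0.49 (SE; edgeR adjusted p 0.0624), and P2ry14 had -1.35 ± 0.35 (SE; 0.0656). Neither passed, although the groups of both were apart by FPKM. P2ry6 is also a gene of macrophages, whose list had 2 of 7 tested genes higher in ischemia, against 5.18% of all tested genes. The log2 fold changes of that list ran from -1.13 to 2.17. The part of macrophages in the P2ry6 values was not tested.

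**Figure D5:**
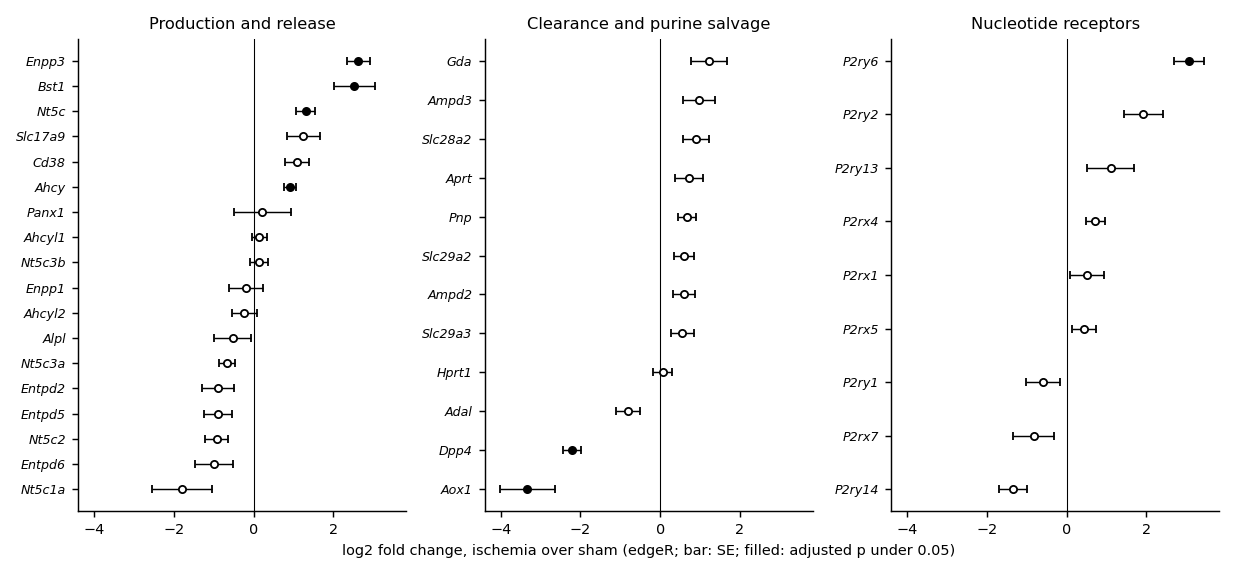
Log2 fold change of ischemia over sham (horizontal axes, edgeR, with the SE as a bar) for the 39 tested genes of the wider purine list in 3 panels by role, filled where the adjusted p was under 0.05. Enpp3, Bst1, Nt5c, Ahcy and P2ry6 are filled above 0, and Dpp4 and Aox1 below 0.

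In the fit without sham replicate 1, the sample with few Y-linked reads, the log2 fold changes of Ada, Adk, Slc29a1 and Dpp4 were 1.32, -1.22, -2.00 and -2.21, with none past the adjusted threshold in edgeR and 3085 genes of the whole table at an unadjusted p under 0.05.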

How the data were processed

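The authors deposited 1 table of raw read counts and FPKM values per gene and sample. Per the labels, libraries came from a strand-specific total RNA kit, and STAR and HTSeq were among the processing tools. Versions, roles, the genome build and whether counting used strand were not given in the sources used here, so reads of overlapping genes are uncertain. The deposited counts were not normalized, and the FPKM had been scaled by the authors to gene length and library size. Samples were grouped by their titles, and no sample was left out.

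Counts were tested with the edgeR quasi-likelihood test (TMM scaling, no covariate, mean FPKM minimum 0.5, Benjamini-Hochberg over all tested genes, threshold 0.05). The SE was derived from the F statistic. Overlap of groups was read on FPKM. Two-sided exact permutation tests were used for the receptor shares. The genes, lists and tests were chosen with earlier results of these data known. All 10 adenosine genes are reported, with each gene of the wider list past the threshold, the 3 genes most alike to the highest and lowest member, and marker lists as wholes. Acp3 was matched by its older symbol. Other genes of the wider list and Myl7 and Nppa were named after their values were seen. Those of the list were Cd38, the Entpd and Nt5c relatives, Pnp, Slc29a2, P2ry2, P2ry14 and any at an unadjusted p under 0.05. Replicates of a group differed by far more than sampling noise. Alternatives were median-ratio and total-count scaling, a mean FPKM minimum of 5 or none, DESeq2, limma on log2(FPKM + 0.1) and log2(FPKM + 1), a replicate block, an atrial covariate and each sample left out. At this depth 3 counts correspond to a CPM of 0.0377 to 0.0438, which covers counting error only. The fits were tested on simulated data. Promoters came from RefSeq. Figures and tables were made with matplotlib 3.10.9, scipy 1.17.1 and Python 3.11.15, and the fits with DESeq2 1.42.0, limma 3.58.1 and edgeR 4.0.16 under R 4.3.3.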

Additional observations from a re-analysis of the deposited data

How the results depend on the processing

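All 9 tested adenosine genes and the 7 called genes of the wider list kept the sign of their log2 fold change under every alternative in which they were tested. Sizes moved more, with Dpp4 at -1.23 and Aox1 at -1.59 by limma on log2(FPKM + 1). The calls moved, and the cause was not tested. Against 1 higher and 1 lower adenosine gene and 5 higher and 2 lower genes of the wider list, DESeq2 called 3, 3, 10 and 6. The replicate block called 0, 0, 0 and 0 (edgeR, with 3, 3, 8 and 5 at an unadjusted p under 0.05), and so did the atrial covariate (2, 2, 9 and 4). Whether the replicate numbers pair the samples was not given. The correlation of deviations from the group means averaged -0.115 for equal and 0.0553 for different numbers. Deviations sum to 0 within each group, which ties both averages together, so they cannot show whether the samples were paired. Total-count scaling in edgeR called 0 lower adenosine genes (2 at an unadjusted p under 0.05), and 3 higher and 1 lower of the wider list. Without an expression filter edgeR called 0 lower adenosine genes (3 at an unadjusted p under 0.05) and 1 lower gene of the wider list. At a mean FPKM of at least 5 it called 2 lower adenosine genes, and 0 lower of the wider list, where Dpp4 and Aox1 were no longer tested. Limma with either pseudocount called 2 lower adenosine genes, Adk and Slc29a1. Leaving out each sample gave 0 to 2 higher and 0 to 3 lower adenosine genes, and 0 to 8 and 0 to 7 of the wider list. The share difference of Adora3 ran from -0.23 to 2.19 percentage points in those fits, turning to -0.23 without ischemia replicate 1. Over all genes, 723 higher and 214 lower became 2071 and 1742 with DESeq2, 509 and 83 with total counts, 493 and 93 without a filter, and 0 and 0 with the replicate block (3349 at an unadjusted p under 0.05) or the atrial covariate (2499). Leaving out 1 sample gave 0 to 1495 higher and 0 to 1115 lower, the most without ischemia replicate 1.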
